A study of Mus musculus with 10 samples.

Results

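The genes described here encode the histones, the proteins around which DNA is wound in chromatin. The gene table of the series holds 17404 genes, and 79 of them are histone genes. Of these, 67 bear names of the replication-dependent gene clusters and are called clustered here, and 12 are variant genes. Of the 79, 3 are annotated as pseudogenes (H2ac14 and H2bu1.ps among the clustered genes and H3f4 among the variant genes). Members were chosen by name. They are the rows whose present or older symbol begins with Hist1h to Hist4h (clustered) or, where none does, with H2af, H3f or H1f (variant). H1f1 to H1f6, formerly Hist1h1 genes, are thus clustered. The table was written with newer symbols, so only 12 rows carried such a name directly, 66 were found through the older symbol listed by RefSeq, and 1 (H2bc24, formerly Hist1h2br) through its transcripts, whose summed estimates lay within 1.012 counts of that row in each library. Of the 79 genes, 78 had at least 11 counts over all libraries and were tested, 66 clustered and all 12 variant. H2ac21, formerly Hist2h2ab, had 6 counts in all and was not tested.

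The libraries were bulk RNA-seq libraries of long-term hematopoietic stem cells (LT-HSCs) sorted from mouse fetal livers at E14.5. The KO group comprised 6 libraries from embryos labelled Tnfrsf11aCre; Spi1f/f and the WT group 4 libraries from embryos labelled Tnfrsf11a+/+; Spi1f/f. Both groups thus carried floxed alleles of Spi1, the gene of the transcription factor PU.1, and differed in the Cre allele. Cre is expressed from the Tnfrsf11a locus, which is active in precursors of macrophages. The study reports that most, but not all, macrophages were lost from the fetal liver at E14.5, and that they were replenished later. The question was whether the stem cells change when those macrophages are depleted. Libraries are called KO1 to KO6 and WT1 to WT4 in the order of their accessions, and these numbers pair nothing between the groups. In discussing its results, the study allows that CD150 as a marker of LT-HSCs in the fetal liver may let other multipotent progenitors through.

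Cells make 2 kinds of histone messenger RNA. The clustered genes supply the bulk of histones when DNA is copied in S phase. Their RNAs have no introns and usually no poly(A) tail, and they end in a short stem-loop that is bound by the protein SLBP. Variant genes, such as those of H3.3 and H2A.Z, are expressed through the cell cycle and yield polyadenylated RNA, and their proteins replace the standard histones outside of replication. SmartSeq2 primes on poly(A), so these libraries are poor at sampling clustered histone RNA without a tail. How much of the clustered RNA seen here carried a tail was not tested. In blood cells that stop dividing, some clustered genes are known to give polyadenylated RNA that runs past the stem-loop.

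The stem-loop was found in the annotated transcripts of Gencode vM21 (GRCm38) as a perfect stem of 6 base pairs that starts with GG and closes on a loop of 4 bases that starts with TT. It lay in the first 150 bases after the stop codon in 44 of the 67 clustered genes and in 1 of the 12 variant genes, H2ax. Among all 66743 coding transcripts of the annotation, 63 held it there (0.0944%). Another 11 clustered genes are annotated with no base after the stop codon. The following were chosen because the results turn on these genes, and the capitals mark the paired stem.
H2ac24: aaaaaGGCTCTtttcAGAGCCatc
H1f2: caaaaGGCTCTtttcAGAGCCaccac
H2ac6: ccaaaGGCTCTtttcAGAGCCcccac
H2bc8: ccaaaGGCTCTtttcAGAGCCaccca
H4c9: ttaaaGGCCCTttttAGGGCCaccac
H2ax: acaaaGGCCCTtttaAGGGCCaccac
The stem of H2ac24, H1f2, H2ac6 and H2bc8 has the same letters, and that of H4c9 is shared with H2ax. The annotated transcript of H1f2 goes on for 880 bases after the stop codon, that of H2ac6 for 2058, that of H4c9 for 376 and that of H2ax for 884, well past the stem-loop. By contrast, the transcript of H2ac24 ends 57 bases after its stop codon and that of H2bc8 after 200. No such stem-loop was found in the 150 bases after the stop codon of H2bc4 or in the last 150 bases of its transcript. That transcript has 742 bases after the stop codon, and those between were not searched. Transcripts with over 300 bases after the stop codon, called extended here, held more than 10% of the estimated counts in 22 clustered genes. Except in H2bc6, H2bc23 and H2bc24, every annotated transcript of these genes is extended. Their share was thus fixed by the annotation and does not show that reads ran past the stem-loop.

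Between 5315435 and 30941726 counts per KO library and between 7633446 and 18256010 per WT library were assigned to genes (two-sided exact permutation test over 210 assignments, p = 0.362, n = 6 and n = 4), with 14862 to 16350 genes detected in KO and 14032 to 15341 in WT (p = 0.0762). Spi1 was not lower in the KO libraries (9.10 to 101 CPM, against 6.22 to 50.1 CPM in WT; log2 fold change 1.31, standard error 0.69, edgeR adjusted p = 0.337), so these counts do not check the genotype. The list used for LT-HSCs held 10 genes. It included Cd48, whose protein LT-HSCs are sorted for lacking, and Tek, which endothelial cells also express, so its sum does not measure the purity of the sort. The summed CPM of these 10 genes lay between 919 and 1760 in KO libraries and between 571 and 835 in WT libraries, with no overlap. Cd48 gave at most 13.3 CPM of it, in WT3. All 10 were detected, 8 had a positive log2 fold change and 3 were called. WT3 stood apart from the other WT libraries, with the lowest TMM factor (0.741) and the highest erythroblast sum (4567 CPM, 6 markers, against at most 1676 CPM elsewhere). So did WT1, with the lowest endothelial sum (162 CPM, 5 markers, against at least 726 CPM elsewhere). WT1 also had the lowest macrophage sum (84.3 CPM, 8 markers, against at least 186 CPM elsewhere). In bulk RNA, fewer cells of a type and less RNA per cell cannot be told apart.

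Histone RNA was first described as TPM, the scale that is divided by transcript length and on which levels of different genes can be compared. Variant genes summed to 2670 to 3657 TPM in KO libraries and to 2355 to 4432 TPM in WT libraries. Clustered genes together reached 1675 to 2140 TPM in KO and 1502 to 1996 TPM in WT. Thus, the 12 variant genes exceeded the 67 clustered genes in each of the 10 libraries. This order holds for the RNA that priming on poly(A) captured. Most clustered histone RNA has no tail, so the order says nothing on all histone RNA of the cells.

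The clustered sum was mostly 1 gene, H2ac24 (formerly Hist1h2ap), which encodes a standard H2A, on chromosome 13 from 21833026 to 21833507. H2ac24 averaged 1343 ± 182 TPM (SD, n = 10) and held 73.1% of the mean clustered TPM. Its reads cannot be fully separated from those of other genes. Of the 31-base words in its transcript, 93.4% also occur in other histone genes and 40.3% in genes other than histone genes. No other clustered gene averaged over 100 TPM. H2bc4, an H2B gene, followed with 78.4 TPM, then H4c9 with 46.7 TPM and H1f2, a linker histone gene, with 39.3 TPM. H2ac18, H2bc8, H4c17, H3c13, H2aw and H2ac11 completed the 10 highest, from 26.1 down to 13.6 TPM. A mean of at least 10 TPM was reached by 17 clustered genes, and 15 stayed under 1 TPM.

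Among the variant genes, H2az1 had the highest mean level, 1031 ± 313 TPM (SD, n = 10), followed by H3f3b with 827 ± 236 TPM and H3f3a with 735 ± 176 TPM. These spreads exceed the distance between neighbours in the order. H2az1 encodes H2A.Z, and H3f3a and H3f3b both encode H3.3. H2az2, the second H2A.Z gene, averaged 262 TPM, Macroh2a1 143 TPM, H1f0 140.2 TPM, H2ax 98.2 TPM and H2aj 54.1 TPM. Macroh2a1 encodes macroH2A, a variant associated with silent chromatin, and H2ax encodes the variant that is phosphorylated at DNA breaks. Macroh2a2, H1f10, the oocyte linker histone gene H1f8 and H3f4 were near the detection limit, with totals of 387, 159, 64 and 15 counts.

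The comparison of genotypes asked which histone genes differed in level between KO and WT. Counts were normalized by TMM, and levels of single genes are given below as CPM, counts scaled to a normalized library of 1000000, which are not divided by length. The deposited TPM carry no TMM factor, so the scales also differ in how libraries are normalized. Of the variant genes, H2aj and H2az1 were lower in KO, and of the clustered genes none passed the edgeR test in either direction (before adjustment, 5 with higher and 1 with lower values had p below 0.05). Over the whole table, edgeR called 446 of 16725 genes lower in KO (2.67%) and 221 higher (1.32%) at an adjusted p below 0.1. The 2 of 78 histone genes called lower and the 0 called higher are to be read against those shares. At an unadjusted p below 0.05, 6 histone genes were higher and 5 lower, beside 8.6% and 10.2% of all genes.

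H2aj encodes an H2A variant whose tail differs from the standard H2A, on chromosome 6 from 136808244 to 136810074. Its levels were 38.3, 48.7, 37.5, 50.1, 48.3 and 63.4 CPM in KO1 to KO6 and 117, 71.3, 96.5 and 85.1 CPM in WT1 to WT4. Every KO library lay below every WT library. The KO mean was 47.7 ± 9.47 CPM (SD, n = 6) and the WT mean 92.5 ± 19.4 CPM (SD, n = 4), a log2 fold change of -0.96 (standard error 0.21, edgeR adjusted p = 0.0824). On the TPM scale H2aj ranged from 35.8 to 56.1 in KO and from 56.3 to 88.2 in WT, so that the groups stayed apart by a narrow margin.

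H2az1 lies on chromosome 3 from 137864487 to 137866922. Its levels were 833, 666, 1116, 615, 759.7 and 683 CPM in KO and 1576, 1179.8, 978 and 1459.6 CPM in WT. Only KO3 and WT3 overlapped. The log2 fold change was -0.74 (standard error 0.20, edgeR adjusted p = 0.0910). In TPM, which carry no TMM factor, the groups overlapped more widely, from 648 to 1422 TPM in KO and from 660.0 to 1412 TPM in WT. Of the 31-base words in the transcripts of H2az1, 42.3% also occur in genes other than histone genes, which makes its estimate uncertain.

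H3f3b lies on chromosome 11 from 116021912 to 116027962. Its levels were 883, 1099, 1056, 1063, 1159 and 1181 CPM in KO and 1696, 1449, 1209.8 and 2258 CPM in WT. The groups did not overlap, yet the adjusted p missed the threshold (log2 fold change -0.62, standard error 0.18, edgeR adjusted p = 0.102). On the TPM scale H3f3b did overlap, with 634 to 841 in KO and 525 to 1375 in WT. The other H3.3 gene, H3f3a, ranged from 273 to 634 CPM in KO and from 387 to 757 CPM in WT, with a log2 fold change of -0.33 (standard error 0.26, edgeR adjusted p = 0.528).

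**Figure D1:**
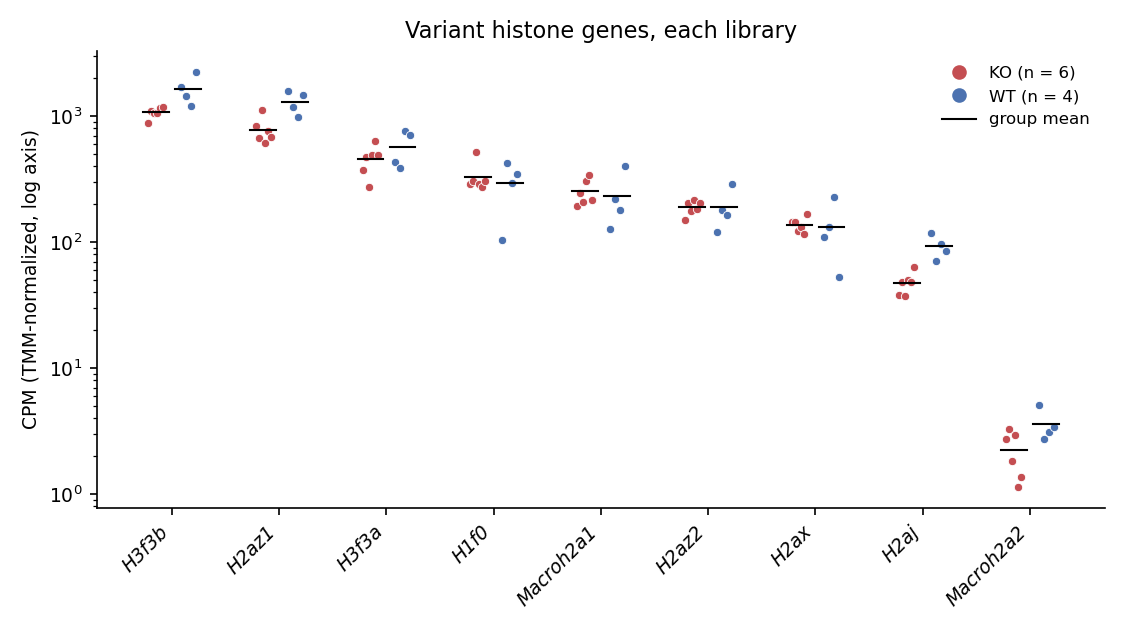
CPM of the 9 most abundant variant histone genes (log axis) in each KO library (red, n = 6) and WT library (blue, n = 4), with black lines at the group means. For H2aj and H3f3b every KO point lies below every WT point, whereas for H1f0, Macroh2a1, H2az2 and H2ax the groups overlap.

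H2az2, which encodes nearly the same protein as H2az1, ranged from 150.3 to 215 CPM in KO and from 121 to 289 CPM in WT, with a log2 fold change of 0.00 (standard error 0.23). H1f0, the linker histone that accumulates in cells that leave the cycle, ranged from 273 to 515 CPM in KO and from 105 to 427 CPM in WT (log2 fold change 0.17, standard error 0.32). The spread within groups exceeded the difference between them in both genes. Macroh2a1 had a log2 fold change of 0.12 (standard error 0.29), Macroh2a2 of -0.69 (standard error 0.54) and H2ax of 0.07 (standard error 0.31). H2ax was at 52.5 CPM in WT4 and at 230.0 CPM in WT3, so that the WT group alone spanned all KO values. H1f10 ranged from 0.596 to 2.43 CPM in KO and from 0 to 1.33 CPM in WT. None of these 6 genes was called.

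The rarest variants were seen in few libraries. H1f8 had 0, 1, 3, 23, 37 and 0 counts in KO and 0 in each WT library. With 3 counts per WT library in place of 0, its KO mean was at least 1.47-fold higher, and edgeR gave an adjusted p of 0.195. H3f4, annotated as a pseudogene, had 2 counts over the KO libraries and 13 over the WT libraries, a rate 15.98 times as high in WT (exact 95% interval of the counts 3.62 to 146, counting error only; edgeR adjusted p = 0.169).

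Over the 12 variant genes, 6 log2 fold changes were positive and 6 negative, with a median of -0.16. The median of all 16725 genes tested was 0.06. Among the clustered genes, 48 of 66 were positive and 18 negative, with a median of 0.53, and 0.50 over the 50 genes with a total of at least 100 counts (all genes of that depth, 0.03). Where no library of a group exceeded 3 counts, 3 counts per library were put in place, and the clustered median was then 0.40. Such a value is not always a bound, because it can turn the sign. H2ac12, with 23 counts, all in KO libraries, then had a KO mean 0.572 times the value put in for WT. The clustered median was 0.33 without WT1, 0.35 without WT2 and 0.79 without WT3, and the variant median was -0.30, -0.02 and -0.06 without these same libraries. These genes share reads and are not replicates of each other, so the medians are descriptions and were not tested.

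**Figure D2:**
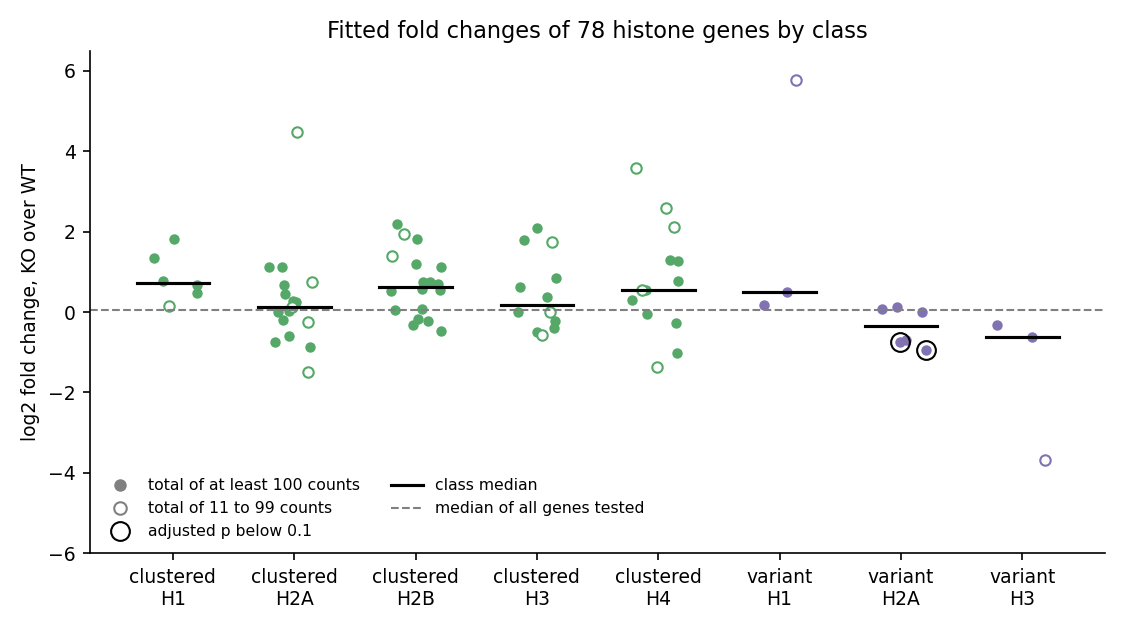
Fitted log2 fold changes, KO over WT, of the 78 histone genes tested, by kind and by the histone they encode. Filled points have a total of at least 100 counts, open points 11 to 99, rings mark H2aj and H2az1 (edgeR adjusted p below 0.1), black lines are class medians and the dashed line is the median of all genes (0.06). Clustered H1, H2B and H4 genes lie mostly above the dashed line, and the points at the top and bottom are genes with few counts.

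By the histone encoded, the median log2 fold change was 0.73 over 6 clustered linker histone (H1) genes, all positive, 0.12 over 17 H2A genes, 0.63 over 18 H2B genes, 0.18 over 12 H3 genes and 0.55 over 13 H4 genes. Of the 6 H1 genes, H1f6 had 43 counts in all, 33 of them in KO5, and a log2 fold change of 0.14. Over the alternative fits described below, its log2 fold change ran from -6.06 to 4.68 and that of H1f2 from -0.66 to 0.90. With 3 counts per library in place of lower counts, as above, the H2A median was 0.01 and the H4 median 0.30, and the others kept their values. These medians, too, can hold values of turned sign. In TPM, clustered H2B genes summed to 244 ± 65.3 (SD, n = 6) in KO and 138 ± 39.8 (SD, n = 4) in WT, and clustered H4 genes to 113 ± 21.4 and 72.02 ± 12.03. In CPM the same sums were 171 ± 79.1 against 142 ± 46.9 for H2B and 60.8 ± 17.8 against 58.0 ± 13.7 for H4, differences smaller than the spread between libraries. How far these classes lay apart therefore depended on the scale. Clustered H2A genes, dominated by H2ac24, summed to 583 ± 61.6 CPM in KO against 828 ± 266 CPM in WT.

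H2ac24 had the smallest p of the clustered genes with lower values in KO. Its levels were 551, 468, 464, 426, 514 and 561 CPM in KO and 737, 509.8, 1115 and 658 CPM in WT. WT2 lay within the KO range and WT3 far above it. The log2 fold change was -0.60 (standard error 0.20, edgeR adjusted p = 0.145). In TPM, again without a TMM factor, the difference was smaller than the spread, with 1303 ± 176 TPM (SD, n = 6) in KO and 1404 ± 200 TPM (SD, n = 4) in WT. The next 4 genes in that direction, H4c14, H4c2, H2ac23 and the pseudogene H2ac14, had adjusted p values from 0.456 to 0.623 and means under 3 CPM in both groups.

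Among the other abundant clustered genes, the groups overlapped for H2ac18 (log2 fold change 0.44, standard error 0.47), H3c13 (-0.23, standard error 0.53) and H2ac11 (0.01, standard error 0.52). WT3 had the highest H3c13 level, 17.01 CPM, against at most 9.01 CPM in KO. The exons of H2ac18 and H3c13 are fully overlapped by other annotated genes.

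In the other direction, H2bc8 (formerly Hist1h2bg), an H2B gene on chromosome 13 from 23571396 to 23572013, had the smallest p. Its levels were 23.5, 15.8, 4.28, 30.0, 12.2 and 9.73 CPM in KO and 1.44, 2.31, 6.36 and 8.21 CPM in WT. All but KO3 exceeded every WT library. The log2 fold change was 1.80 (standard error 0.63, edgeR adjusted p = 0.155). In TPM the KO libraries ranged from 9.03 to 64.3 and the WT libraries from 2.24 to 12.2. Of the 31-base words in the transcript of H2bc8, 56.3% also occur in other histone genes and 15.5% in genes other than histone genes.

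H4c17, an H4 gene, was the clustered gene whose groups did not overlap, with 4.02, 13.9, 4.39, 5.28, 5.07 and 7.69 CPM in KO and 1.90, 1.95, 3.55 and 3.82 CPM in WT (log2 fold change 1.26, standard error 0.53, edgeR adjusted p = 0.224). However, 91.7% of the 31-base words in its transcript also occur in other histone genes. H4c17 and the H4 gene H4c18 were given 88 and 11 counts in KO2, but 164 and 322 in KO5. How far the separation depends on this division of reads was not tested. Over the whole table, the KO libraries lay above all WT libraries in 2.88% of genes and below them in 3.48%, and among the 78 histone genes this held for 1 (H4c17) and for 2 (H2aj and H3f3b). H2bc18 had a log2 fold change of 2.2003 (standard error 0.96, edgeR adjusted p = 0.241), but its single exon is fully overlapped by other annotated genes. H4c12 had 84 counts over the KO libraries and 3 over the WT libraries, a rate 11.4 times as high (exact 95% interval of the counts 3.77 to 56.3; edgeR adjusted p = 0.167). Of the 31-base words in the transcript of H4c12, 86.2% also occur in other histone genes and 39.7% in genes other than histone genes. Its interval does not cover how reads were divided among them. H2ac12 had 23 counts, all in KO libraries, too few for a bound.

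DESeq2 testing for changes beyond 0.1 on the log2 scale, which is the test of the study, called 4 histone genes, H2bc8 and H4c12 higher and H2aj and H2az1 lower, where 3.5% of all genes were called higher and 3.29% lower. The calls by edgeR depended on single libraries. With KO1, KO2, KO5, KO6 or WT1 left out, or with the level of Xist, which marks female embryos, added to the model, edgeR called no gene of the whole table (before adjustment, 905 to 1303 genes had p below 0.05 with higher values and 1316 to 1663 with lower values), and with KO4 left out it called 1, so H2aj and H2az1 were lost in all of these. Over the 19 alternatives, H2aj was called in 12 and H2az1 in 7, and both remained negative in all 19.

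H2bc8 and the H2A gene H2ac8 lie head to head, and the starts of both share 1 octamer, the sequence ATTTGCAT that is bound by the transcription factor OCT1. The RefSeq promoter table (GRCm38.p6; 250 bases before to 50 bases after each start) gave this window on chromosome 13, chr13:23571331-23571358, on the plus strand, with the octamer in capitals.
H2bc8: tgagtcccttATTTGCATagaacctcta
The same octamer is read on the minus strand from H2ac8. H2ac8 was chosen after its values were seen, and it ranged from 5.85 to 11.5 CPM in KO and from 7.36 to 11.2 CPM in WT, a log2 fold change of -0.20 (standard error 0.34), against 1.80 for H2bc8.

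Promoters were found for 59 clustered and 11 variant genes. On either strand, the letters CCAAT stood in 50 of 59 clustered and 8 of 11 variant promoters, against 37.9% of 27025 promoters of all genes. TATAAA stood in 33 of 59 clustered and 2 of 11 variant promoters (14.2% of all), and the octamer ATTTGCAT in 11 of 59 and 1 of 11 (1.75% of all), the 1 variant gene being H3f3b. The letters of an E2F motif, TTCGCGC or TTGGCGC, stood in 12 of 59 clustered and 3 of 11 variant promoters (3.98% of all). They were held by 8 of 17 H2A and 4 of 14 H2B promoters and by none of the 6 H1, 10 H3 and 12 H4 promoters of clustered genes. These motifs may overlap, as in the promoter of H2az1, where the E2F letters and CCAAT share 4 bases on chromosome 3, chr3:137864394-137864421.
H2az1: catcccccacGCGCCAAtcatcgctcga
The capitals are the E2F letters TTGGCGC on the minus strand. The match describes the letters of the window only.

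Several clustered genes with extended transcripts varied among the KO libraries by much more than the genotypes differed. H1f2, formerly Hist1h1c, had 25.8, 25.9, 14.6, 109, 119 and 151 CPM in KO1 to KO6 and 26.1, 37.0, 59.4 and 62.7 CPM in WT1 to WT4. KO4, KO5 and KO6 lay above every WT library, and KO1, KO2 and KO3 below every WT library. The log2 fold change of 0.68 (standard error 0.63, edgeR adjusted p = 0.607) thus averaged over both. The other abundant gene of this kind, H2bc4, had 39.6, 34.8, 30.98, 115, 174 and 178 CPM in KO and 58.3, 71.8, 109 and 125 CPM in WT (log2 fold change 0.07, standard error 0.53). Here, too, KO1 to KO3 were the lowest of all libraries.

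H2ac6, an H2A gene that stands head to head with H2bc4, had 1.89, 10.4, 0.975, 13.2, 16.5 and 13.4 CPM in KO and 4.25, 4.79, 5.99 and 2.26 CPM in WT. Its highest libraries were again KO4, KO5 and KO6, and KO2 came next. H3c14 had at least 6.05 CPM in KO4, KO5 and KO6, 3.19 CPM in WT1, 0.650 CPM in KO3 and 0 in the others, and its exon is fully overlapped by another annotated gene. H4c9 ranged from 15.8 to 53.4 CPM in KO and from 22.98 to 45.3 CPM in WT, and H2aw from 16.95 to 49.2 CPM and from 22.5 to 34.5 CPM. H2aw shares 33.0% of its exonic bases with other genes, Trim17 among them. Of the 22 clustered genes with extended transcripts, 15 had positive and 7 negative log2 fold changes, from -1.01 (H4c14) to 2.08 (H3c14), with a median of 0.33. The smallest edgeR adjusted p among them was 0.306, that of the linker histone gene H1f3 (1.90 to 5.30 CPM in KO, 0.303 to 2.44 CPM in WT). H2bc24 ranged from 4.90 to 17.9 CPM in KO and from 4.44 to 8.87 CPM in WT, with its highest values in KO5 and KO6. The groups overlapped also for H1f4, H2bc6, H2bc9, H2bc21, H2bc23, H3c4, H3c6, H3c7, H3c15, H4c3, H4c4, H4c11 and H4f16, whose log2 fold changes lay between -0.50 (H3c15) and 1.73 (H3c7).

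The summed CPM of 5 megakaryocyte markers, Pf4, Itga2b, Gp1bb, Gp9 and Ppbp, was 327, 289 and 157 in KO1, KO2 and KO3, 2230.3, 2199.8 and 3137 in KO4, KO5 and KO6, and 159, 826, 567 and 1097 in WT1 to WT4. All 5 were detected in every library. Megakaryocytes are the platelet-forming cells, and stem cells themselves transcribe some of these genes. KO4, KO5 and KO6 were the 3 highest libraries for the marker sum, H1f2 and H2ac6, whereas for H2bc4 KO5 and KO6 were highest and KO4 lay below WT4. The part of these cells in the values of the histone genes was not tested. The neutrophil sum (6 markers) was also higher in KO4 to KO6, at 103 to 961 CPM, than in KO1 to KO3, at 2.65 to 13.6 CPM, and reached 1854 CPM in WT3. The hepatoblast sum (5 markers, all with positive log2 fold changes and none called) was 4297 CPM in KO5, 5578 CPM in KO6 and 3763 CPM in WT3, against 55.7 to 892 CPM in the other libraries. The endothelial sum (5 markers, 3 positive and none called) ranged from 726 CPM in KO6 to 4621 CPM in KO3 and from 162 to 2986 CPM in WT. The macrophage sum (8 markers, 2 positive and 1 called) ranged from 186 to 916 CPM in KO and from 84.3 to 682 CPM in WT. The part of these cells was not tested either.

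**Figure D3:**
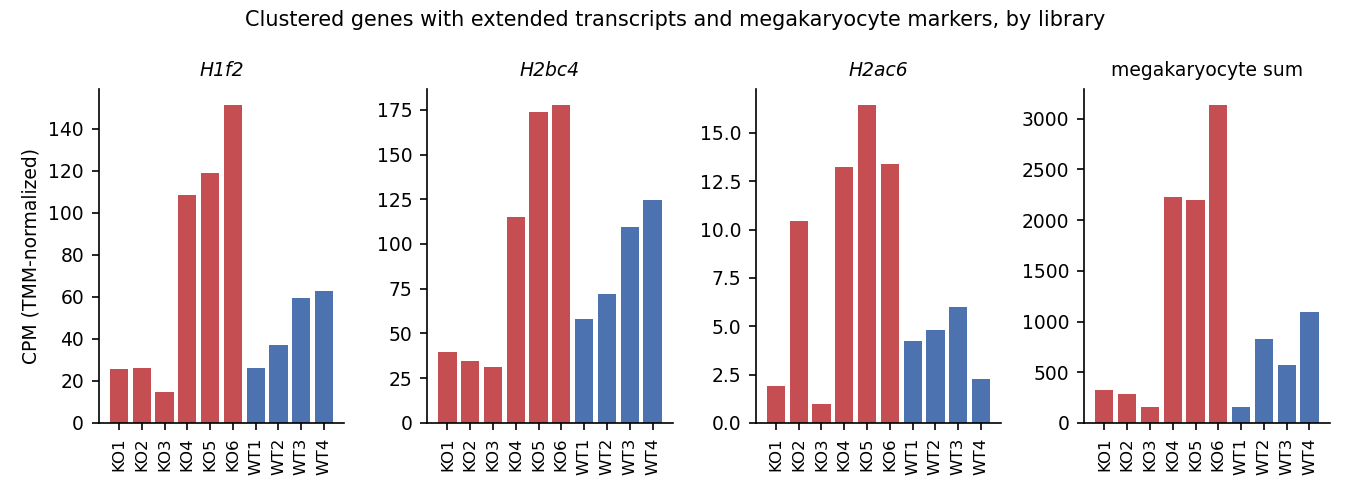
CPM of H1f2, H2bc4 and H2ac6 and the summed CPM of 5 megakaryocyte markers in each library, as bars from 0 (red, KO; blue, WT). KO4, KO5 and KO6 are the tallest bars for H1f2, H2ac6 and the markers, for H2bc4 WT4 exceeds KO4, and KO1, KO2 and KO3 are lower than every WT library for H1f2 and H2bc4.

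The clustered genes are short, and fold changes in these data followed transcript length. When all genes with a known length were split into 5 equal parts by mean transcript length, the median log2 fold change rose from -0.26 in the shortest part (up to 1125 bases) through -0.07, 0.10 and 0.21 to 0.33 in the longest. The shortest part held 49 of the 66 clustered genes, and their median was 0.55, on the other side of 0 from the median of that part. With a loess offset on transcript length in each library, the clustered median was 0.47 and the variant median -0.22, beside -0.15 over all genes. With this offset H2aj was still called, H2az1 was not, and H3f3b was.

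**Figure D4:**
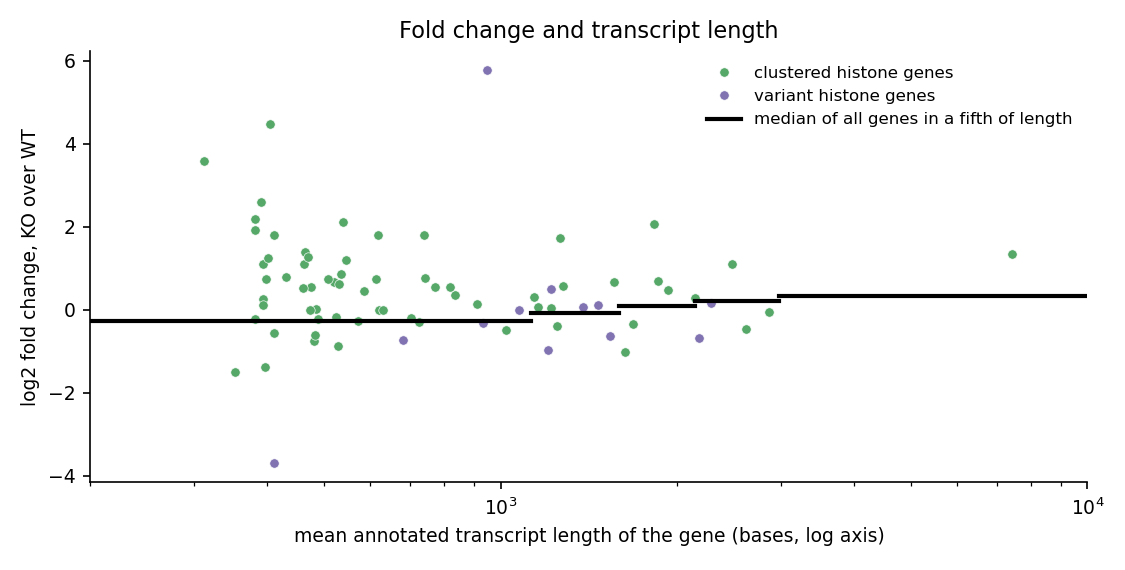
Log2 fold change, KO over WT, against the mean annotated transcript length of the gene (bases, log axis) for clustered (green) and variant (purple) histone genes. Black bars are the medians of all genes in 5 parts of equal size by length, rising from -0.26 to 0.33, and are drawn between 200 and 10000 bases. Most clustered genes lie above the first bar.

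The genes that make and process clustered histone RNA were examined as a list of 39, all of which were tested. Of these, 27 had negative and 12 positive log2 fold changes, with a median of -0.24, and 5 were called lower and 1 higher, where edgeR called 2.67% of all genes lower and 1.32% higher. Slbp, whose protein binds the stem-loop, had 190.2, 188, 260.4, 164, 203 and 199.6 CPM in KO and 395, 301, 354 and 304 CPM in WT. No KO library reached the lowest WT library, and the log2 fold change was -0.75 (standard error 0.17, edgeR adjusted p = 0.0824). Lsm10, a subunit of the U7 particle that cuts histone RNA, was lower by -0.79 on the log2 scale (standard error 0.18, edgeR adjusted p = 0.0824), from 38.9 to 56.2 CPM in KO and from 63.9 to 89.0 CPM in WT.

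Lsm4, which belongs to the ring of proteins that joins in histone RNA decay, ranged from 133 to 181 CPM in KO and from 237 to 328 CPM in WT (log2 fold change -0.79, standard error 0.16). Ncbp2, the small subunit of the cap-binding complex, had a log2 fold change of -0.89 (standard error 0.24). Ccne1, the cyclin that with CDK2 switches on histone transcription at the start of S phase, ranged from 54.1 to 77.6 CPM in KO and from 96.1 to 329 CPM in WT, a log2 fold change of -1.45 (standard error 0.28). All 3 were called lower by edgeR (adjusted p = 0.0824, 0.0913 and 0.0824). Each of the 4 WT libraries exceeded each KO library for Slbp, Lsm10, Lsm4 and Ccne1, but not for Ncbp2.

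Pou2f1, which encodes OCT1, the factor of the octamer above, was the gene of this list called higher. It had 32.9, 21.7, 20.2, 31.1, 21.1 and 35.6 CPM in KO and 17.1, 11.9, 14.3 and 8.07 CPM in WT (log2 fold change 1.07, standard error 0.30, edgeR adjusted p = 0.0956). The groups did not overlap. Npat, the coactivator of clustered histone genes, had a median of 41.4 CPM in KO (lowest 29.1, highest 49.7) and 35.4, 26.1, 25.4 and 8.07 CPM in WT. KO2 and WT1 overlapped, and Npat did not pass the test (log2 fold change 0.80, standard error 0.34, edgeR adjusted p = 0.225).

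**Figure D5:**
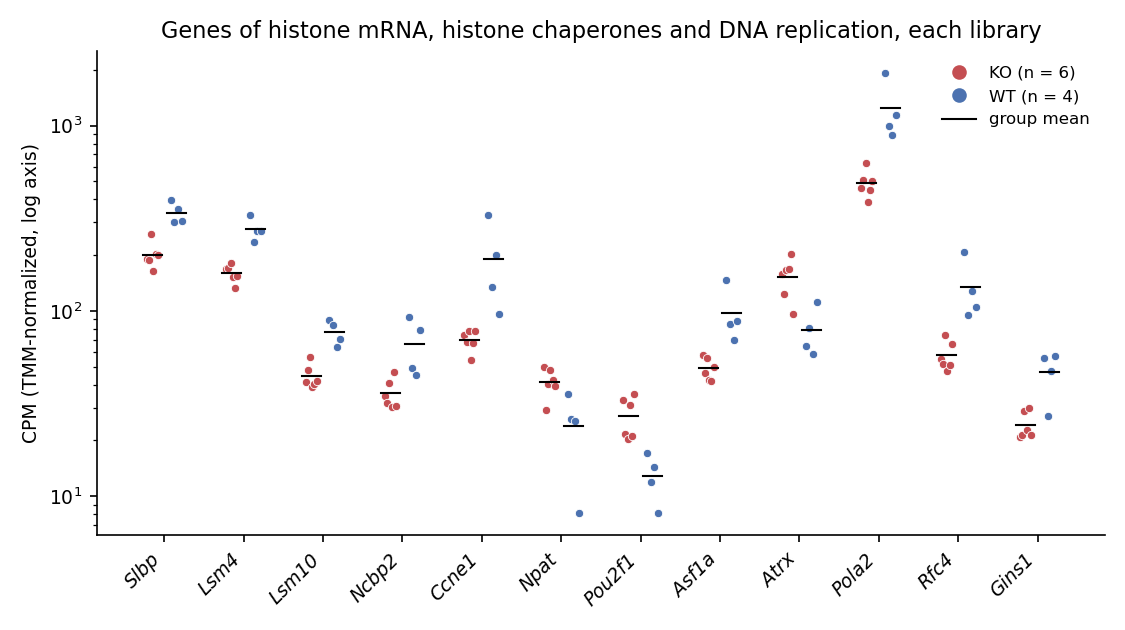
CPM (log axis) of 12 genes that process or transcribe histone RNA, carry histones or replicate DNA, in each KO library (red, n = 6) and WT library (blue, n = 4), with black lines at the group means. Slbp, Lsm4, Lsm10, Ccne1, Asf1a, Pola2 and Rfc4 lie lower in KO with no overlap, Pou2f1 lies higher with no overlap, and Npat, Ncbp2, Atrx and Gins1 overlap.

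Of 43 genes of histone chaperones and of remodelers that exchange histones, 42 were tested, with a median log2 fold change of -0.26. Of these, 28 were negative and 14 positive, and 4 were called lower and 1 higher (all genes, 2.67% and 1.32%). Asf1a, a chaperone that hands H3 and H4 to their deposition factors, ranged from 41.6 to 57.5 CPM in KO and from 69.5 to 146 CPM in WT (log2 fold change -0.996, standard error 0.22, edgeR adjusted p = 0.0824). Also called lower were Anp32b (log2 fold change -0.93, standard error 0.25), Set (-0.88, standard error 0.24) and Ruvbl2 (-0.87, standard error 0.23), with edgeR adjusted p values of 0.0909, 0.0931 and 0.0910. The first 2 belong to families of acidic chaperones, and Ruvbl2 is a subunit of the remodelers that exchange H2A.Z.

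Atrx, a remodeler that with DAXX deposits H3.3, was the gene of this list called higher, with 157, 123, 166, 169, 203 and 96.0 CPM in KO and 64.6, 81.1, 58.6 and 112 CPM in WT. KO6 lay below WT4. The log2 fold change was 0.95 (standard error 0.25, edgeR adjusted p = 0.0893).

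Since clustered histone genes are expressed with DNA replication, 41 genes of S phase and DNA synthesis were set beside them. In this list, 36 of the 40 genes tested had negative and 4 positive log2 fold changes, with a median of -0.48. The median of the clustered histone genes was of the other sign (0.53), but it weighs scarce and abundant genes alike. H2ac24, which held 73.1% of the mean clustered TPM, had a log2 fold change of -0.60. Summed over all clustered genes, mean CPM was 929 in KO (SD 194) against 1106 in WT (SD 334). Mean summed TPM was 1893 in KO (SD 195) against 1755 in WT (SD 203). Both differences were smaller than the spread between libraries. Pola2, a subunit of the DNA polymerase that starts new strands, was called lower (387 to 629.6 CPM in KO, 884 to 1927 CPM in WT; log2 fold change -1.34, standard error 0.22, edgeR adjusted p = 0.0824). Rfc4, a subunit of the clamp loader, had 47.3 to 73.7 CPM in KO and 94.9 to 208 CPM in WT (log2 fold change -1.22, standard error 0.24), and Gins1, a subunit of the replicative helicase, 20.8 to 29.7 CPM and 27.0 to 57.0 CPM (log2 fold change -0.95, standard error 0.24). Both were called lower by edgeR (adjusted p = 0.0824 and 0.0836). edgeR thus called 3 of the 40 lower and 0 higher (all genes, 2.67% and 1.32%). Before adjustment, 19 had p below 0.05 with lower values and 0 with higher values (all genes, 10.2% and 8.6%), and DESeq2 with its threshold of 0.1 called 4 lower and 0 higher (all genes, 3.29% and 3.5%). All 6 erythroblast markers also had negative log2 fold changes, with none called, and their sum ranged from 195 to 1676 CPM in KO and from 188 to 4567 CPM in WT. The part of erythroblasts in the values of these genes was not tested.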

How the data were processed

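SmartSeq2 libraries were sequenced by the authors as single-end reads, converted with bcl2fastq 2.20 and quantified with Kallisto 0.44.0 on Gencode vM16 (GRCm38). The authors deposited, per transcript, estimated counts, lengths and TPM, and a gene table of estimated counts summed by symbol and cut to whole numbers, not normalized. Kallisto divides reads among near-identical copies. No molecular identifiers were used, so intervals cover counting error only.

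Genes whose counts over all libraries summed to 11 or more were tested with edgeR 4.0.16 (R 4.3.3; TMM, glmQLFit robust, glmQLFTest, Benjamini-Hochberg adjustment over all genes, threshold 0.1). Standard errors came from the F statistic. The fit was tested on simulated counts. Alternatives were DESeq2 1.42.0 with and without a threshold of 0.1, its size factors, other filters, no robust option, a length offset, Xist as a covariate, transcript sums and each library left out. TPM of a gene is the sum over its transcripts. Labels do not say that libraries came from separate litters, so p-values measure the spread between these libraries. Columns of individual samples left unused numbered 0.

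The members, the lists (39, 43 and 41 genes) and the rule for named genes were chosen with earlier results of these data known. Named are tested variant genes, the 10 clustered genes with the highest mean TPM, called genes, in each direction the 5 clustered genes of smallest p, Slbp, Npat and called list genes, and clustered genes with over 10% of counts on extended transcripts. H2ac8 was added after its values were seen. Positions are from Gencode vM21 (GRCm38), a later release on the same build, and promoters from RefSeq (GRCm38.p6). Protein sequences were not used here.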

Additional observations from a re-analysis of the deposited data

Results flagged for a closer look

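In 120 groups of 6 KO or 4 WT libraries, 9 values lay far from the others of their group (by the gap to the nearest value relative to the range of the group, Dixon's test), and chance alone gives about 1 in 20. H1f0 had 515 CPM in KO3, where the next KO library had 307 CPM, and H4c17 had 13.9 CPM in KO2 with 7.69 CPM next. H4c12 was seen in WT2 alone among WT libraries (0.266 CPM), and H3c14 in WT1 alone (3.19 CPM). Set had 787 CPM in KO3 with 629 CPM next. Ruvbl2 had 161 CPM in KO5, with 229.5 CPM next, and 695 CPM in WT1, with 357 CPM next. In WT3, H3c7 had 0.813 CPM and H4c11 1.18 CPM, where the next WT libraries had 0.0758 CPM and 0.152 CPM.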

How the results depend on the processing

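The number of histone genes called (2, both lower) was 4 with DESeq2 at a threshold of 0.1 (2 higher), 8 with DESeq2 without it (4 higher, 4 lower), 1 without the robust option, 1 with transcript sums and 0 with the Xist covariate. It was 0 to 4 with a library left out (0 to 1 higher, 0 to 3 lower). The clustered median was 0.31 and the variant median -0.31 with the Xist covariate, and with a library left out they ranged from 0.33 to 0.79 and from -0.30 to -0.0198. Rescaling TPM over nuclear protein-coding genes gave clustered sums of 2628 (KO) and 2407 (WT) and variant sums of 4478 and 4722. The cause was not tested.

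Signs turned with the length offset for H1f0 (-0.13), H2az2 (-0.0634), Macroh2a1 (-0.0811), H2bc23 (-0.0721), H2bc4 (-0.0689), H2aw (-0.0599) and H3c13 (0.0264), with the Xist covariate for H1f10 (-0.0908), H2bc4 (-1.04), H2bc23 (-0.26), H1f2 (-0.66), H3c14 (-0.31) and H2bc24 (-0.0566), with filterByExpr for H2az2 (-0.0043) and with both DESeq2 fits for H2ac11 (-0.0057). With a library left out, H1f0 ranged from -0.11 to 0.40, H2ax from -0.19 to 0.54, H2az2 from -0.16 to 0.29, Macroh2a1 from -0.0884 to 0.52, H2bc4 from -0.205 to 0.26, H3c13 from -0.487 to 0.62, H2ac11 from -0.26 to 0.39, H2bc23 from -0.26 to 0.44, H2bc9 from -0.66 to 0.51, H3c15 from -0.78 to 0.38, H3c4 from -0.72 to 0.0672 and H4f16 from -0.51 to 0.95. Of 1153 values for 61 genes, 950 kept their direction and side of the threshold, 142 lost the call, 14 gained it and 47 reversed. No paired analysis was possible because the labels give no replicate number that the groups share.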
